A study of Arabidopsis thaliana with 6 samples.

Results

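NLP2-GFP peaks were examined that were listed in nitrogen-starved Arabidopsis thaliana seedlings, were absent from the list made after nitrate, and lay away from every protein-coding gene. A peak was a member when it shared no base with a peak of the nitrate list and when its summit, the highest point of the peak, lay more than 1000 bp from all protein-coding genes on the 5 nuclear chromosomes. Members were thus selected on the authors' peak calls at both times and on summit position, and 214 of the 579 peaks of the starvation list qualified. Of all 579, 80.3% shared no base with the nitrate list and 52.5% had a summit beyond 1000 bp. Of the 465 peaks found in starvation alone, 46.0% had such a summit. These percentages come from the rule itself and carry no test.

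Chromatin immunoprecipitation and sequencing (ChIP-seq) was done with antibodies against GFP on whole seedlings of the nlp2-2 mutant, in Col-0, that carried the fusion pNLP2::NLP2-GFP, in which the NLP2 promoter drives NLP2 joined to GFP. Seedlings grew for 10 days with 3 mM nitrate and were then starved of nitrogen for 3 days, and their age is labelled as 14 days. Those called T0 received fresh medium without nitrogen, and those called T30 received 3 mM nitrate for 30 min. Each time had 2 immunoprecipitated (IP) libraries and 1 input library of unprecipitated chromatin. Both times share the mutation and the construct, and the lists used here hold no sample without GFP. The 2 IP libraries of a time were pooled before the lists were made, so a peak has 1 value per time and no replicate error.

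NLP2 belongs to the NIN-like proteins, transcription factors that bind nitrate-responsive elements and switch on genes of nitrate uptake and reduction when nitrate arrives. Arabidopsis chromosomes carry most protein-coding genes on their arms. The sequence around the centromeres is rich in transposons, in pseudogenes (broken gene copies) and in satellite repeats, and much of it is packed as heterochromatin. In the gene table used here, the class called pseudogene is not limited to broken gene copies, since it also holds the retrotransposon SADHU7-2.

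The members were of ordinary height for a list that was itself low. The authors' fold over background ran from 1.87 to 3.33 with a median of 2.03, and the median of all 579 T0 peaks was 2.06. From the fold and the p-value of each peak, the pileup at the summit (the number of fragments stacked there) and the background used for that peak could be solved as a pair, and the pileup came out whole in 100% of the 579 T0 peaks, within 1% of the step to the next whole number. The members' pileups ran from 217 to 369 fragments with a median of 233 (95% order-statistic interval 230 to 235), over a background of 110.08 fragments for most peaks of the list. The lowest T0 peak of any kind also stood at 217, so the weakest members lay at the floor of the list. All T0 peaks together also had a median of 233 (interval 231 to 235), and so did the 365 that were not members. A pileup under 250 was found for 168 members (78.5%), against 72.7% of all T0 peaks, and 2 members exceeded 300.

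Peaks of T0 that were shared with T30 and also lay far from genes were taller, with a median pileup of 305 fragments (interval 293 to 330). Being shared is part of the rule, so this is a description. Peaks found at T0 alone in or beside protein-coding genes had a median of 226 (interval 225 to 228), which was lower than the members' median, and the same floor of 217. The upper quartile was 245 fragments for the members and 253 for all T0 peaks, and the highest T0 peak, a shared one, reached 1161.

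**Figure D1:**
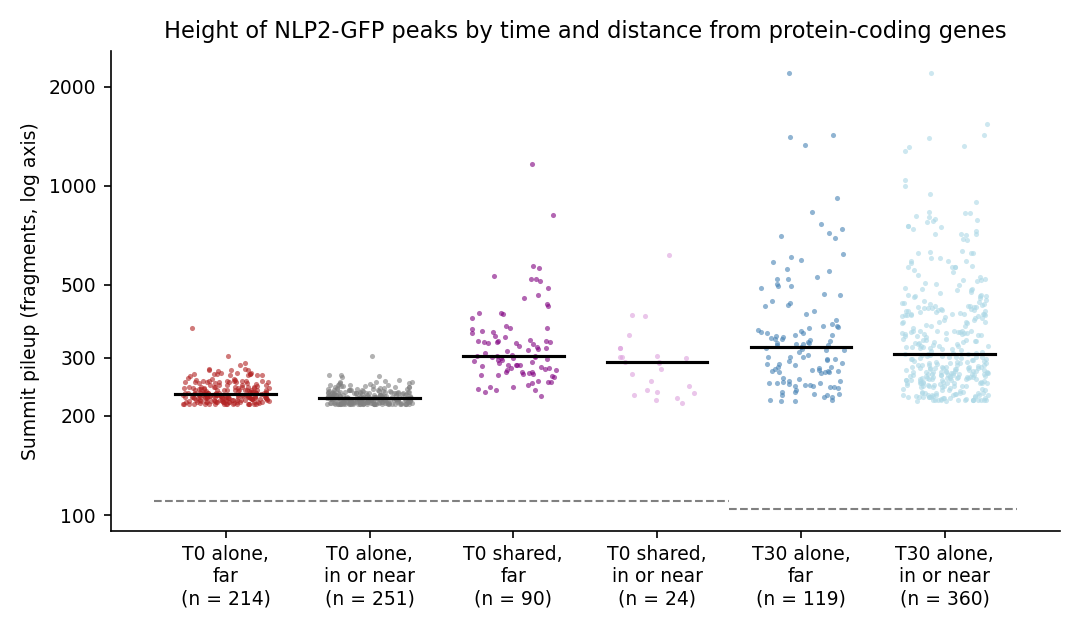
Pileup at the summit in fragments (log axis) for each NLP2-GFP peak, by time, by whether a peak of the other time shares a base, and by whether the summit is over 1000 bp from protein-coding genes (far) or not. Black lines are medians and dashed lines the background of each list, 110.08 at T0 and 104.45 at T30. The 214 members, at the left, lie between 217 and 369.

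A missing T30 peak does not give a level at T30. Peaks were listed from a −log10 q of 16.1 upward at T0 and of 20.4 upward at T30, and 133 members (62.1%) lay below the T30 minimum, against 55.6% of all T0 peaks. A peak on the usual T30 background of 104.45 fragments was listed only from 222 fragments up, which is 2.13 times that background, whereas T0 peaks were listed from 1.97 times theirs. Had the T0 list been held to the T30 minimum, 81 members would have been left.

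The tallest member lay on chromosome 3 from 13189052 to 13190232, with its summit in the pseudogene AT3G32210. It had a pileup of 369 fragments, with an exact Poisson 95% interval of 332 to 409 that covers counting error only. It also overlapped a T0 input peak. Next by fold, at 2.58 and 286 fragments, came the member spanning 13792660 to 13793515 of the same chromosome. It stood in a long stretch without genes, and no pseudogene lay within 1000 bp of its summit. Chromosome 2 had its highest fold, 2.51 with 278 fragments, between 4236619 and 4238053, and the summit was in AT2G10770, a pseudogene of 461 bp.

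On chromosome 5 the highest fold, 2.44, belonged to a peak from 12340293 to 12341036 in the pseudogene AT5G32726. The next 4 members by fold had exactly the same value, 2.43, and the same pileup of 269 fragments. They lay on chromosome 4 from 3019741 to 3021447, in AT4G05638, and on chromosome 5 from 11952179 to 11953162, from 12138809 to 12140112 in AT5G32510, and from 15493753 to 15497271 in AT5G38705. Equal values recur because the pileup is whole and most peaks share a background: 121 members had a fold that another member also had, and 11 of them had a fold of 1.99, at 220 fragments. The order of members by fold therefore contains many ties.

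Of the 10 highest, the peak between 4761097 and 4761923 of chromosome 4 reached a fold of 2.42 but a pileup of 305, which only the tallest member exceeded. Its background was 126 fragments, above the usual 110.08. The last of the 10, between 16541686 and 16543285 of chromosome 1, reached a fold of 2.40 with 266 fragments, and no pseudogene lay within 1000 bp of its summit.

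Such a raised background, over 0.5% above the usual T0 value, was found for 80 members (37.4%, exact 95% interval 30.9% to 44.2%), against 27.6% of all T0 peaks. Among shared peaks far from genes it was 44.4%, and among T0-only peaks in or beside genes 13.9%. The largest was at a peak on chromosome 1 from 14088271 to 14088664, in the pseudogene AT1G37060, where it was 1.35 times the usual value. That peak had 278 fragments, as many as the highest on chromosome 2, and a fold of 1.87. Members with a raised background had a median pileup of 243 fragments (interval 238 to 249) and the others 229 (interval 226 to 231). Peaks are listed by height over their own background, so a raised background calls for a higher pileup, and this is a description. The median folds were 1.99 and 2.07 in that order.

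Most members sat on loci annotated as pseudogenes. The summit lay inside an annotated pseudogene in 128 of 214 (59.8%, exact 95% interval 52.9% to 66.4%), against 26.8% of all T0 peaks. Within 1000 bp there was a pseudogene for 152 members (71.0%, interval 64.4% to 77.0%), against 33.9% of all T0 peaks. The comparison of interest is with sequence that a member could occupy. Of the 30.4 Mb of assessed sequence more than 1000 bp from protein-coding genes, 31.6% is inside a pseudogene and 48.9% inside or within 1000 bp of one. Both are lower than the members' shares of 59.8% and 71.0%.

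Other peaks far from genes gave lower shares. Of the 90 far T0 peaks shared with T30, 16 summits were inside a pseudogene (17.8%, interval 10.5% to 27.3%). Of the 119 far peaks found at T30 alone, 0 were, which allows a share of up to 3.05% (upper bound of the exact interval). These intervals cover counting error only and treat peaks as independent, although 68 members had another member within 10 kb. The classes also differed in surroundings. With 100 or more protein-coding genes starting within 500 kb on each side were 89.1% of far T30-only peaks, against 25.7% of the members. No test was made, since peaks are not replicates and each list comes from pooled libraries.

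The 128 summits fell in 124 pseudogenes, and 4 pseudogenes (AT1G37060, AT2G11430, AT3G30695 and AT5G29075) held 2 summits each. Of these summits, 123 lay in the class called pseudogene and 5 in the class of transcribed pseudogenes. The pseudogenes with a member had a median length of 2702 bp and those far from protein-coding genes without a member 1961 bp. Per pseudogene the share with a member was 1.77% below 1000 bp and 5.43% from 5000 bp up, but per Mb of pseudogene the order was the other way, with 29.0 hit pseudogenes per Mb in the short class and 8.71 in the long class. These length classes were chosen after the values were seen.

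Summits were denser near the ends of the pseudogenes than in the middle. The end segments, together 20% of the length and split evenly between both ends, held 41 of 128 summits (32.0%), and the middle 40% held 37 (28.9%). The median summit was 19.2% of the pseudogene's length from its nearer end. The table carries no strand for use here, so the start cannot be told from the end. Peaks stayed largely within the pseudogene: 53 lay wholly inside and the median peak had 99.0% of its bases there.

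Names were available for few of these loci. The gene table gives a symbol to 67 of 4843 pseudogenes, and 2 members had their summit in such a locus. A peak on chromosome 3 from 12804155 to 12804791, with 229 fragments, lay in SADHU7-2 (AT3G31442), which the table calls a Sadhu non-coding retrotransposon. Of the 16 Sadhu elements in the table, 1 held a member summit, 2 held a T0 summit of any kind and 0 held a T30 summit. Of the 4200 pseudogenes far from protein-coding genes, 2.95% held a member summit, so a count of 1 among 16 says nothing particular about Sadhu elements. The other named locus was RLP18 (AT2G15040), a transcribed pseudogene of the receptor-like proteins, with a peak on chromosome 2 from 6508943 to 6510524 and also 229 fragments. Transposons are not a class of their own in this table, so the pseudogene shares given here cannot be split into gene remnants and transposons. Counts by transposon family were not made.

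RNA genes were rarely close. A gene for a non-coding RNA lay within 1000 bp of 5 member summits (2.34%), against 4.66% of all T0 peaks. The share was 1.11% among shared T0 peaks far from genes, so this was not particular to the members, and 24.4% among far peaks found at T30 alone. No annotated gene of any class lay within 1000 bp of 59 members (27.6%). This share was not computed for other peaks or for the sequence far from protein-coding genes. Of that sequence, 48.9% is inside or within 1000 bp of a pseudogene, against 71.0% of the members, so the 27.6% does not mark the members as unusually isolated.

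Width went with annotation. Members with the summit in a pseudogene had a median width of 1066 bp (interval 845 to 1245) and the 86 others 556 bp (interval 522 to 593), although the median pileups were close, at 233 fragments in both. The split was seen in gene-poor regions (1050 bp against 553 bp) and outside them (1154 bp against 582 bp). Of the 16 members wider than 2000 bp, 15 had the summit in a pseudogene. The widest, on chromosome 1 from 13660638 to 13664503, covered 3866 bp and had its summit in AT1G36305. It was followed by a peak of 3744 bp on chromosome 2 from 5809767 to 5813510, in AT2G13860, and one of 3635 bp on chromosome 3 from 14464213 to 14467847, in AT3G42313. Each of these stood at 229 to 255 fragments and had a raised background.

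A width over 1000 bp was found for 78 members (36.4%), against 29.5% of all T0 peaks and 3.36% of far peaks found at T30 alone. The other T0 classes had 24.7% (T0-only in or beside genes), 25.6% (shared, far) and 33.3% (shared, in or beside genes). All T30 peaks together had 7.42%, so the contrast with T30 held for the lists as a whole. Across the 214 members, width and pileup had a Spearman rho of 0.21, given as a description of peaks from 1 pooled list.

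**Figure D2:**
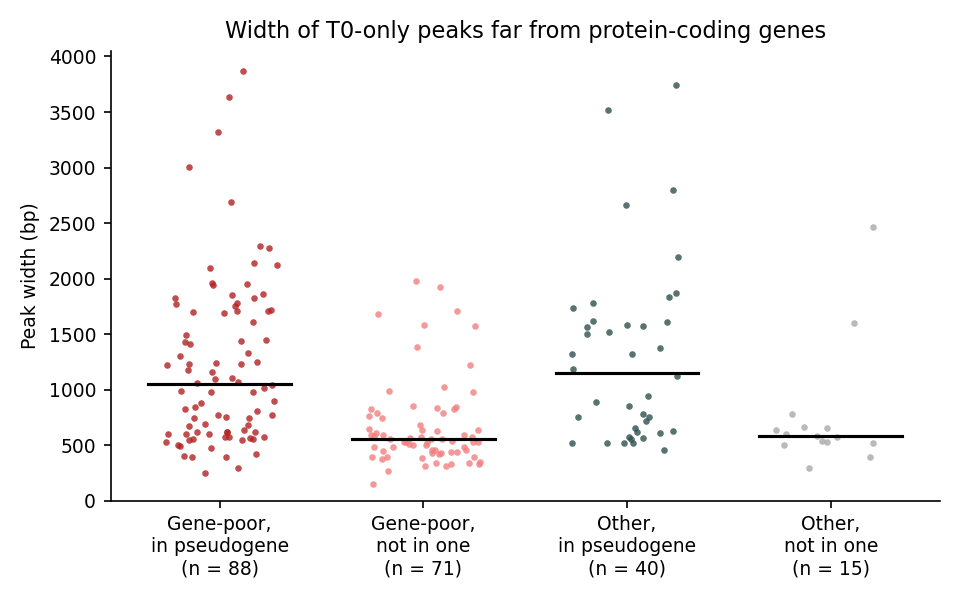
Width in bp of each of the 214 members, split by region (gene-poor or other) and by whether the summit lies in a pseudogene. Black lines are medians, 1050 and 553 bp in gene-poor regions and 1154 and 582 bp elsewhere, with the larger value for pseudogenes each time.

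Members crowded into gene-poor regions, defined as a window of 500 kb either way from the summit in which under 100 protein-coding genes started. There were 159 of them (74.3%, exact 95% interval 67.9% to 80.0%), against 42.5% of all T0 peaks and 23.8% of those that were not members. Among shared T0 peaks far from genes the share was higher, at 85.6%, so it was not particular to the members. Distance from genes is part of the rule, so the comparison is with sequence that is equally far: 42.5% of the bases more than 1000 bp from protein-coding genes lay in gene-poor regions. Where fewer than 25 genes began in the window, there were 16.7 members per Mb of such sequence. With 25 to 49 genes the figure was 12.9, with 50 to 99 it was 9.02, and with 100 or more it was 3.15. The number of members per Mb thus fell at each step towards the gene-rich arms.

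The gene-poorest class held 25.2% of the members and 53.3% of the shared T0 peaks far from genes. Far peaks found at T30 alone lay elsewhere: 89.1% had 100 or more genes in the window, against 25.7% of the members. The median distance to the nearest protein-coding gene was 14.2 kb for the members. It was longer, at 51554 bp, for shared T0 peaks far from genes and shorter, at 1813 bp, for far T30-only peaks. Of the members, 125 (58.4%) were more than 10 kb away and 28 (13.1%) more than 100 kb. Among T30-only peaks 24.8% had a summit beyond 1000 bp.

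**Figure D3:**
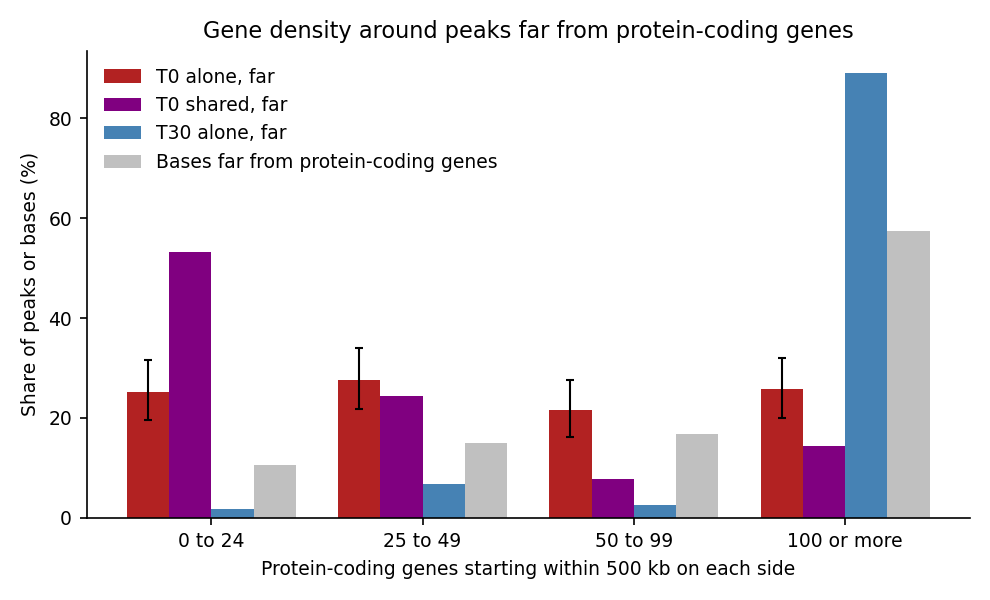
Share of peaks (%) by the number of protein-coding genes that start within 500 kb on each side, for the members (exact 95% intervals), shared T0 peaks and T30-only peaks far from genes, and for all bases far from protein-coding genes. Members hold 25.2% in the gene-poorest class, where 10.7% of the bases lie, and 89.1% of T30-only peaks are in the gene-richest class.

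Every chromosome carried members: 40 on chromosome 1, 38 on chromosome 2, 58 on chromosome 3, 37 on chromosome 4 and 41 on chromosome 5. Per Mb of sequence far from protein-coding genes this came to 5.76, 6.52, 9.35, 7.36 and 6.45. Median pileups by chromosome lay between 230 and 239 fragments. Between 24 and 27 members per chromosome had their summit in a pseudogene. Outside pseudogenes, chromosome 3 had 31 members and the others 12 to 15.

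Many of those stood in a single stretch. The longest stretch without a protein-coding gene measured 491 kb on chromosome 3 and held 22 members, of which 1 was in a pseudogene. The corresponding stretches held 8 members on chromosome 5, 3 on chromosome 4, 2 on chromosome 2 and 1 on chromosome 1. Together the 5 stretches held 36 members (16.8%) in 4.99% of the sequence far from protein-coding genes, with 7 of the 36 in a pseudogene. They also held 43 of the 90 shared T0 peaks far from genes, so this crowding was not particular to the members. Peaks found at T30 alone numbered 3 there. Members there were narrower, with a median of 502 bp (interval 425 to 576).

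Neighbouring members formed groups. Another member lay within 10 kb for 68 members, in 25 groups of which 18 were pairs. Another T0 peak of any kind lay within 10 kb for 79 members (36.9%), against 28.3% of all T0 peaks. The share was 70.0% among shared T0 peaks far from genes and 7.17% among T0-only peaks in or beside genes. Of far T30-only peaks, 37.0% had another T30 peak that close, so such grouping was not particular to the members. The largest group had 9 members in 29.9 kb on chromosome 3, from 13748737 to 13778613. Their pileups were 241, 237, 222, 233, 267, 230, 217, 222 and 235 fragments in order along the chromosome, and their widths ran from 153 to 1219 bp. None of the 9 summits lay in a pseudogene, and the nearest protein-coding gene was over 200 kb from each. The span also held 1 peak present at both times.

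The second group had 7 members on chromosome 5 from 12102690 to 12145552, with pileups from 218 to 275 fragments, and 5 of these summits lay in pseudogenes. Another, of 4 members on chromosome 3 from 12244841 to 12259624, had all 4 summits in pseudogenes and no T30 peak within 300 kb.

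Some members stood beside peaks that were present at both times. A T30 peak lay within 5 kb of 18 members (8.41%), against 6.67% of all T0-only peaks, and for 16 of the 18 that T30 peak was itself shared with another T0 peak. Within 1 kb there were 5 members, and all 5 neighbours were shared. Of these 5 T30 peaks, 2 overlapped an input peak, namely those beside the members that start at 13723776 and 13687097 of chromosome 3. Of the 92 T30 peaks in gene-poor regions, 13 were far T30-only peaks and 0 were T30-only peaks in or beside genes. Most T30 peaks there were thus shared, and a shared neighbour is the usual case. The closest, on chromosome 3 from 13754498 to 13754650, was 153 bp wide with 222 fragments and lay 164 bp from a T30 peak of 287 fragments, where the T0 list had 301. Next, a member from 13723776 to 13724302 with 219 fragments lay 179 bp from a T30 peak of 314 fragments, with 349 at T0. On chromosome 5 a member from 12138809 to 12140112 with 269 fragments was 331 bp from a T30 peak of 255 fragments, with 314 at T0. These 3 members were lower than the shared T0 peak beside them. So was a member on chromosome 3 from 13687097 to 13687439, with 259 fragments against 367, whereas the member from 13792660 to 13793515 of that chromosome, with 286, was higher than its shared neighbour, with 230. The 5 closest members were named after their values were seen.

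Within 20 kb of a T30 peak there were 45 members (21.0%), and over all 214 the median gap was 94.2 kb. T0-only peaks in or beside genes had a median gap of 70.7 kb and far T30-only peaks one of 100 kb to T0 peaks, with intervals that overlap the members' interval of 72.8 to 119 kb in both cases.

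**Figure D4:**
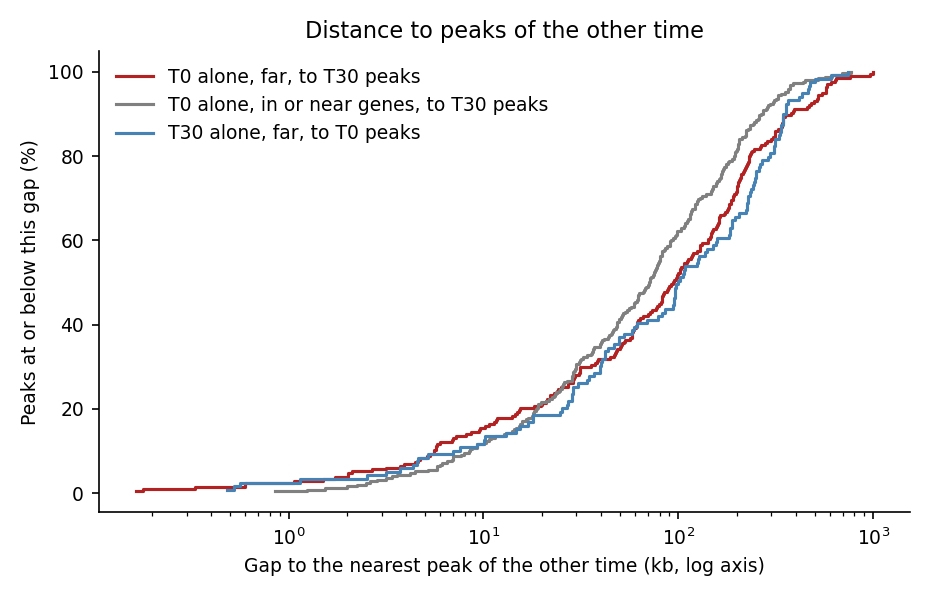
Cumulative share of peaks (%) by the gap to the nearest peak of the other time (kb, log axis), for the members, for T0-only peaks in or beside protein-coding genes and for T30-only peaks far from them. The 3 curves run close together, with medians of 94.2, 70.7 and 100 kb.

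Few members coincided with peaks of the input chromatin. Of 87 T0 input peaks, 4 overlapped a member, so 4 of 214 members did (1.87%, exact 95% interval 0.51% to 4.72%), against 5.53% of all T0 peaks. The same 4 made up 4.94% of the 81 members that reached the lowest T30 q and 3.74% of the 107 at or above the median fold, and the first of these is close to the share of all T0 peaks. The names of both IP lists carry a tag noINPUT that no source used here explains. Peaks on the listed input peaks were not all removed, since 32 T0 peaks overlapped a T0 input peak. Whether some had been removed cannot be told from these lists. Among shared T0 peaks far from genes, 26 of 90 overlapped a T0 input peak (28.9%, interval 19.8% to 39.4%). Among T0-only peaks in or beside genes, 0 of 251 did (upper bound 1.46%). The members' share thus lay below that of all T0 peaks but above that of the other T0-only peaks. No member overlapped any of the 22 T30 input peaks. Besides the tallest member, the 4 were on chromosome 1 from 15259351 to 15259847 with 252 fragments, on chromosome 2 from 3629929 to 3630454 with 236, and on chromosome 3 from 13778189 to 13778613 with 235. In all 4 the summit lay inside the input peak, and the input folds were 2.07, 1.97, 2.48 and 2.13 in that order.

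A list of nitrate genes was set beside the members. For 25 genes of nitrate uptake, reduction, signalling and sugar phosphate supply, among them NIA1, NIA2, NIR1, NRT2.1, NRT3.1 and LBD37, 0 were the nearest protein-coding gene of a member and 0 had a member summit within 5 kb. Of all 27444 protein-coding genes only 0.521% were nearest to a member and 0.281% had a member summit within 5 kb, so a count of 0 among 25 says nothing particular about these genes. A T30 summit lay within 5 kb of 24 of the 25, against 5.41% of all genes, but the list was drawn up with this known. A member lay within 50 kb of 1 of them (4.24% of all genes), the nitrate reductase gene NIA2 (AT1G37130). That peak, on chromosome 1 from 14181255 to 14183026, had 225 fragments and its summit in the pseudogene AT1G37160.

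The nearest protein-coding genes numbered 143, and 18 members shared AT3G32980, which borders the long stretch on chromosome 3. Symbols were given for the gene nearest to 19 members. Their distances ran from 1237 bp to 26.4 kb. The 3 closest of these, a choice made after the values were seen, were LAC10 at 1237 bp, YUC6 at 1333 bp and NF-YB7 at 2266 bp. LAC10 encodes a laccase, and the member near it, on chromosome 5 from 70545 to 71182, had 218 fragments. YUC6, a flavin monooxygenase of auxin synthesis, was nearest to a member on chromosome 5 from 8933354 to 8934206 with 223 fragments in the pseudogene AT5G25615. NF-YB7, a subunit of the nuclear factor Y complexes, was nearest to one on chromosome 2 from 5658636 to 5659212 with 225 fragments in AT2G13580.

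The 55 members outside gene-poor regions resembled the others in height, with a median pileup of 230 fragments (interval 227 to 234) against 234 (interval 231 to 238). Their summits lay in pseudogenes in 40 cases (72.7%), against 88 of 159 (55.3%) in gene-poor regions, and 14 had a raised background (25.5% against 41.5%). Only 3 of the 55 had a T30 peak within 20 kb, against 42 of the 159. The highest fold among them, 2.43, was that of the peak in AT5G38705, followed by the peak on chromosome 1 near AT1G43770 at 2.40 and one on chromosome 2 from 1635035 to 1636158 in AT2G04670 at 2.34.

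The members closest to the limit of 1000 bp had summits 1008, 1153, 1176, 1237 and 1250 bp from a protein-coding gene, with pileups of 224, 232, 222, 218 and 228 fragments. The nearest genes were AT3G44703, AT5G33370, AT1G37020, LAC10 and AT5G35530. Just outside it were T0-only peaks at 886, 842, 829, 810 and 798 bp, with pileups of 245, 241, 227, 262 and 219 fragments. At least 1 base of the peak came within 1000 bp of a protein-coding gene in 8 members, and in 0 did the peak reach into the gene.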

How the data were processed

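MACS2 2.1.1, SAMtools 1.7 and Bowtie2 2.3.4.1 are named in the submitters' processing notes, as is the build TAIR10. The 4 deposited lists hold peaks, and the names of the IP lists say that replicates were pooled and filtered by IDR, and carry the tags noCM and noINPUT, which no source used here explains. Per the file headers, the authors give each IP peak a fold (a ratio), a −log10 p, a −log10 q, a score and a summit offset, and each input peak a fold and a −log10 q. Read depth is not given in the sources used here.

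Assuming MACS2's usual definitions, fold = (pileup + 1)/(background + 1) and p the Poisson upper tail of the pileup, both unknowns were solved for each peak. The largest miss was 0.454% of a step at T0 and 0.374% at T30. On 200 simulated peaks the solution was exact in 200. Python 3.11.15, numpy 2.4.6, pandas 2.3.3, scipy 1.17.1 and matplotlib 3.10.9 were used.

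Positions are 1-based on TAIR10. Gene classes came from a RefSeq table of TAIR10.1 (27444 protein-coding genes), assuming equal nuclear coordinates, and where several pseudogenes held a summit the shortest was taken. Chromosome lengths were taken to the last gene or peak. Overlap meant at least 1 bp. Shares have exact Clopper-Pearson 95% intervals and medians binomial order-statistic intervals, which cover counting error only. No test was run. Named members were the 10 highest by fold, the 3 widest, the 5 on each side of the limit, those on input peaks, the largest group, those next to nitrate genes and the highest per chromosome. The members and lists were chosen with earlier results of these data known. The solved pileup, the raised background, the density classes, the stretches without genes and the splits among members were chosen after the peak values were seen. The planned sequence and motif searches were not run, since no genome was used here. Whether replicate libraries stem from different cultures is unstated in the labels.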

Additional observations from a re-analysis of the deposited data

How the results depend on the processing

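The number of members was 198 to 227 with limits of 500 or 2000 bp, with every base of the peak measured, with T30 peaks within 500 bp counted as shared, without members on input peaks, and with RNA genes also kept at 1000 bp (the last chosen after seeing the data). It was 81 with T0 peaks at or above the lowest T30 −log10 q and 107 with members at or above their median fold. Over all alternatives run, the share with the summit in a pseudogene stayed between 59.1% and 62.6%, the share within 1000 bp of a pseudogene between 70.4% and 72.9%, and the share in gene-poor regions between 70.9% and 78.3%, the windows of 250 kb and 50 genes included. At the lowest T30 q, the median fold was 2.15, the median pileup 245 fragments, the median width 896 bp, the share on an input peak 4.94% and the share with another member within 10 kb 12.3%. With members at or above their median fold, the median fold was 2.13, the median pileup 238 fragments and the share with another member within 10 kb 14.9%. Fewer peaks were counted in both cases, and the reason for the lower share with a neighbour was not tested. A limit of 50 kb instead of 10 kb put that share at 59.3%. No paired analysis was possible because the deposited lists pool the replicates, and no replicate could be left out for the same reason. With members at or above their median fold, 3.74% lay on an input peak. Low peaks limit what can be said: the members' floor of 217 fragments is that of the list.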
